A study of Mus musculus with 13 samples.

Results

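The transcriptome described here is that of the unmutated lower incisor of the mouse on postnatal day 5. It was read from the 5 libraries labelled as control in a series of 13. The series design calls these wild-type controls, and the labels name no strain, allele or treatment for them. The remaining libraries, 3 from VDRgem and 5 from VDR-null mice with an altered vitamin D receptor, are not analysed here. All 5 libraries are labelled male, and whole incisors were pulled from the jaw and frozen, so enamel organ, dentin-forming cells, pulp, vessels, nerves and any adhering bone or gum went into the same extract. The design text calls the incisors independent without tying a library to an animal, so every spread given below is a spread between these libraries. In such bulk RNA, fewer cells of a type and less RNA per cell cannot be told apart. No groups were compared.

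The rodent incisor keeps growing through life, renewed from stem cells at its apical end. Towards the tip, epithelial cells become ameloblasts, which first secrete an enamel matrix of amelogenin, ameloblastin and enamelin and later, in the maturation stage, degrade that matrix while mineral takes its place. Facing them, odontoblasts of the dental papilla lay down dentin, a type I collagen matrix that also holds processed products of dentin sialophosphoprotein. A growing incisor can therefore hold cells of several stages at once, and which stages were present on postnatal day 5 was not tested.

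The most abundant transcripts of the tooth included enamel genes that differed several-fold between the 5 libraries beside enamel genes that hardly differed, and the start regions of both kinds are printed because they belong to the genes this pattern turns on. The kinds were told apart after their values were seen. Amelx, Ambn and Enam, which encode the 3 enamel matrix proteins named above, were of the wide kind. Mmp20, which encodes the protease of the secretory stage, and Amtn and Odam, which encode proteins of maturing enamel, were of the narrow kind. Each line gives the 250 bases before the transcript start, 5′ to 3′ on the gene's own strand, from RefSeq on GRCm38.p6. Capitals mark 4 motifs searched on both strands, namely the TATA box with the letters TATAAA, the box named after its letters CCAAT, the GC box with GGGCGG and the core of Runx sites with TGTGGT. Overlapping matches were merged in capitals, as where TATAAA and the reverse of CCAAT meet in Amelx.
Amelx, chrX:169187210-169187459, minus strand: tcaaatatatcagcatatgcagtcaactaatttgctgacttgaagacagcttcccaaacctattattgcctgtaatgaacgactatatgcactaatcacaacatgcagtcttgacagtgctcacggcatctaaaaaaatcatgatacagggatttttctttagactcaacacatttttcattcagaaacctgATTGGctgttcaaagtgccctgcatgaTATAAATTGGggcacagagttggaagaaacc
Ambn, chr5:88455741-88455990, plus strand: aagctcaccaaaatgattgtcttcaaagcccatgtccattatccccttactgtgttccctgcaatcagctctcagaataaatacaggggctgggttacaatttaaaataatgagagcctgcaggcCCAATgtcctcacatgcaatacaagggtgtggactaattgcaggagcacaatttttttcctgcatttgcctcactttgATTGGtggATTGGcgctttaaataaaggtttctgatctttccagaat
Enam, chr5:88487725-88487974, plus strand: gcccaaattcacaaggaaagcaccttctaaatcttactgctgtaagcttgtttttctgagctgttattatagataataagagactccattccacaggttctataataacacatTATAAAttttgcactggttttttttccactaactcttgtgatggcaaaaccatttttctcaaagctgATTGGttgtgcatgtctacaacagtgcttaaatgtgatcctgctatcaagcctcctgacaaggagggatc
Mmp20, chr9:7627981-7628230, plus strand: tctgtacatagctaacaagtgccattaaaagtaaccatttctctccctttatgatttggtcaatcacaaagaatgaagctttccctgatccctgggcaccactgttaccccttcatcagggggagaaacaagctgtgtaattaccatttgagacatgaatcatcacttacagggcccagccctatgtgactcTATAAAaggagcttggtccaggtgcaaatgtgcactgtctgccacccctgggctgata
Amtn, chr5:88375858-88376107, plus strand: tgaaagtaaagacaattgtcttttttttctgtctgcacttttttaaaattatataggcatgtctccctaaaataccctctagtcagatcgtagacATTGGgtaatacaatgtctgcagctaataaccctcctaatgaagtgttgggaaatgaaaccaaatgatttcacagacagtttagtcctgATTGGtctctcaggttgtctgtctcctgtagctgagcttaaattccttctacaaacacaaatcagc
Odam, chr5:87884760-87885009, plus strand: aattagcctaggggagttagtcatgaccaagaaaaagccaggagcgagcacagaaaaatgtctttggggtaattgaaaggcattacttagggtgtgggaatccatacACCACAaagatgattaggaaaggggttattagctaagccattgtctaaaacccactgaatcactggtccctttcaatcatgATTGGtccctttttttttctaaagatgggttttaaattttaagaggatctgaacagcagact

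TATAAA lay 31 bases before the start in Amelx, 58 in Mmp20 and 137 in Enam, and these letters were not in the window of Ambn, Amtn or Odam. CCAAT, in either direction, was present 2 times in Amelx, 3 in Ambn, 1 in Enam, 2 in Amtn and 1 in Odam, and not in Mmp20. GGGCGG was in none of the 6 windows, and TGTGGT was in that of Odam alone. Of 32851 mouse promoters of this length, 12.4% held TATAAA, 33.8% CCAAT, 32.7% GGGCGG and 14.05% TGTGGT. Among the 111 promoters listed for the 100 most abundant genes the shares were 18.9%, 36.9%, 45.9% and 11.7%. Neither the wide nor the narrow kind had a motif of these 4 that all 3 of its members held and the other kind lacked. A match of letters is a description and shows no bound factor.

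Levels between genes are given as transcripts per 1000000 (TPM), computed from the deposited counts and the merged exon length of each gene, and written in the order of controls 1 to 5. Fold ranges and CVs of single genes between libraries use counts per 1000000 (CPM) after TMM scaling, which corrects for library composition, unless TPM is named. List sums, and the highest or lowest library where TPM values are given, rest on TPM, which has a fixed total in each library. Total counts ran from 20405188 in control 2 to 66058759 in control 3, and TMM factors from 0.973 to 1.03. Y-linked Ddx3y and Eif2s3y stood at 38.8 to 44.2 and 42.5 to 56.5 TPM, and Xist, the transcript of the inactive X chromosome, had between 1 and 7 counts in each library, as for male tissue. No pair of libraries differed by over 2-fold in more than 87 of 9973 genes. All 5 libraries were distinct, since counts of the closest pair differed by a chi-square of 15.2 per degree of freedom. Control 4 stood apart in keratins of surface epithelium, and control 5 in short transcripts, both described below.

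A small number of genes supplied much of the RNA. Of 34709 genes in the table, 4637 had no count in any control, and 13557 reached 1 CPM in every library. The 10 genes with most counts held 18.9 to 22.5% of each library's counts, and the 100 with most counts 30.2 to 33.7%. The most counted gene by itself, Col1a1 in every library, held 6.42 to 10.6%. It took 601 to 733 genes to reach 50% of the counts and 5865 to 5993 to reach 90%. On the TPM scale 67 genes had a mean of at least 1000, 1554 of at least 100 and 9853 of at least 10. Protein-coding genes held 99.2% (median of the 5) of the counts.

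**Figure D1:**
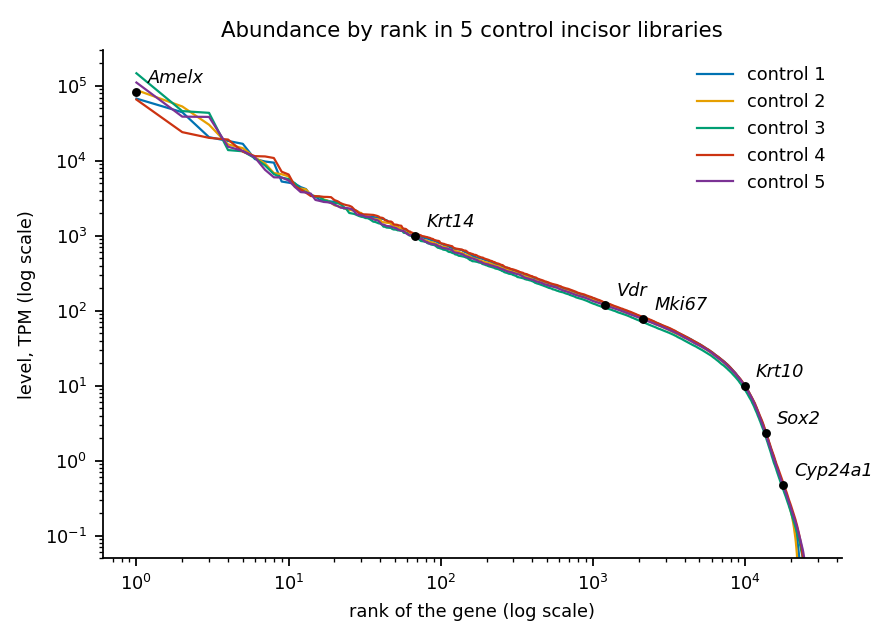
Level of each gene in TPM (log scale) against its rank (log scale) in each of the 5 control libraries (lines), with the means of 7 named genes as black points. The curves differ at the left end, where Amelx leads with a mean of 83008 TPM, and lie close together from about the position of Krt14 (rank 68) to that of Krt10 (rank 9893).

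The 4 marker genes of the tooth were all above 100 TPM in every library. Amelx (ENSMUSG00000031354, chrX:169176114-169187200, minus strand, GRCm38) encodes amelogenin, the chief enamel matrix protein, and ranked 1 of all genes by mean TPM. Col1a1 (ENSMUSG00000001506, chr11:94936224-94953042, plus strand) encodes a chain of type I collagen and ranked 2. With the median transcript as length Amelx ranked 2, and by CPM with no length 3, and Col1a1 ranked 1 by both. Dspp (ENSMUSG00000053268, chr5:104170712-104180127, plus strand) encodes dentin sialophosphoprotein and ranked 4. It ranked 6 with the longest and 7 with the median transcript as length. Krt14 (ENSMUSG00000045545, chr11:100203162-100207548, minus strand), a keratin of basal epithelium, ranked 68. Amelx overlaps Arhgap6, which lies on the opposite strand, and no source used here says whether the authors' counting used the strand.

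The level of Amelx differed widely between the libraries. Its level was 44551, 87951, 147460, 24166 and 110909 TPM in controls 1 to 5. Control 4 was lowest and control 3 highest, and the 5 values formed no tight cluster. On the CPM scale the highest library was 7.09-fold above the lowest, and the coefficient of variation (CV, the SD as a percentage of the mean) was 64.97%. The median CV over the 9973 genes averaging at least 10 CPM was 7.63%. Amelx was the most abundant transcript in controls 2, 3 and 5, and Col1a1 was in controls 1 and 4. Amelx also made up 1.06, 2.22, 3.94, 0.571 and 2.81% of all counts in controls 1 to 5.

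Ambn (ENSMUSG00000029288, chr5:88455991-88468531, plus strand), which encodes ameloblastin and ranked 3, followed the same order of libraries. It stood at 18415, 30358, 46115, 13257 and 38911 TPM, and the libraries spanned 4.04-fold on the CPM scale. Enam (ENSMUSG00000029286, chr5:88487975-88506049, plus strand), which encodes enamelin and ranked 24, stood at 1009, 2154, 4138, 462 and 3786 TPM. With the median transcript as length Ambn ranked 6 and Enam 92, and by CPM with no length 6 and 10. For all 3 matrix genes the order from low to high was control 4, 1, 2, 5 and 3. Enam had the widest span of the matrix genes, 10.4-fold on the CPM scale with a CV of 74.2%. Without control 4, the library that also stood apart in keratins of the mouth lining, the span was 4.71-fold for Enam, 3.804-fold for Amelx and 2.88-fold for Ambn. The order of sequencing depth was another, although controls 3 and 5 were also the deepest, and the shallowest library was control 2. The ratio of Amelx to Ambn was 2.42, 2.897, 3.198, 1.82 and 2.85, so the matrix transcripts did not keep a fixed proportion either.

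Mmp20 and Sp6, other ameloblast genes, did not share this span. Mmp20 (ENSMUSG00000018620, chr9:7628231-7674979, plus strand), the protease that starts to cut the enamel matrix while it is being secreted, stood at 781, 817, 739, 731 and 793 TPM. All 5 values were close, with a fold range of 1.18 and a CV of 6.796% on the CPM scale. Sp6, which encodes a transcription factor of the ameloblast lineage, stood at 720.3, 716, 593, 674 and 645 TPM with a CV of 5.33%. The ratio of Amelx to Mmp20 was 57.1, 108, 199, 33.04 and 139.9, and that of Amelx to Krt14 53.5, 85.7, 134, 27.5 and 98.8. Both ratios were lowest in control 4 and highest in control 3, so the span of Amelx remained when it was set against another epithelial gene.

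The 11 secretory ameloblast genes listed were all above 10 TPM in every library, and their summed level was 67019.9, 123633, 200946, 40675 and 156700 TPM. Of the 11, 5 had a CV over 30%, namely Amelx, Ambn, Enam, Acp4 and Lamb3, against 121 of 9973 genes (1.21%) overall. Acp4, which encodes an acid phosphatase needed for normal enamel, stood at 181, 344, 470.1, 102 and 334 TPM. Lamb3, which encodes a laminin chain of the ameloblast basement membrane, stood at 171, 239, 360.3, 152 and 304 TPM. Both were lowest in control 4 and highest in control 3. The other 6 members, Mmp20, Sp6, Fam20a, Dlx3, Col17a1 and Fam83h, had CVs from 5.33% to 14.5%. Fam20a, which encodes a pseudokinase needed to phosphorylate enamel proteins, stood at 261 to 326 TPM, and Dlx3, a homeobox factor, at 481 to 647 TPM.

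Maturation stage genes were steadier. Amtn (ENSMUSG00000029282, chr5:88376108-88385916, plus strand) encodes amelotin of the maturation stage basal lamina, ranked 12 and stood at 3441, 4278, 3829, 4140.3 and 3832 TPM. Odam, its partner in that lamina, ranked 18 and stood at 3001, 3303, 2788, 2999.5 and 2492 TPM. Both ranks depend on the length used: with the median transcript as length Amtn ranked 49 and Odam 61, and by CPM with no length 64 and 63. Klk4, which encodes the protease that clears the matrix from maturing enamel, stood at 861, 935, 779, 936 and 773 TPM. For these 3 genes control 4 was never the lowest library, and their CVs were 10.2%, 10.8% and 7.63%. Amtn, Ambn and Enam lie close together on chromosome 5, and Odam lies on the same chromosome at chr5:87885029-87894174, so neighbours in the genome were of the wide and of the narrow kind.

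The 12 maturation genes listed summed to 7709, 8948, 7769, 8503 and 7506 TPM, a fold range of 1.19 against 4.94 for the secretory list. Of the 12, 11 reached 1 TPM in every library. Slc24a4, which encodes a potassium-dependent sodium-calcium exchanger of maturing enamel, stood at 57.7 to 78.2 TPM, and Car6, a secreted carbonic anhydrase, at 118 to 180.3 TPM. Wdr72, needed for endocytosis by maturation ameloblasts, stood at 5.88 to 10.4 TPM, and the chloride channel Cftr at 11.7 to 13.9 TPM. The single member with a CV over 30% was Itgb6, an integrin subunit, at 4.82, 9.72, 14.7, 5.54 and 13.3 TPM, low in controls 1 and 4 and high in controls 3 and 5.

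**Figure D2:**
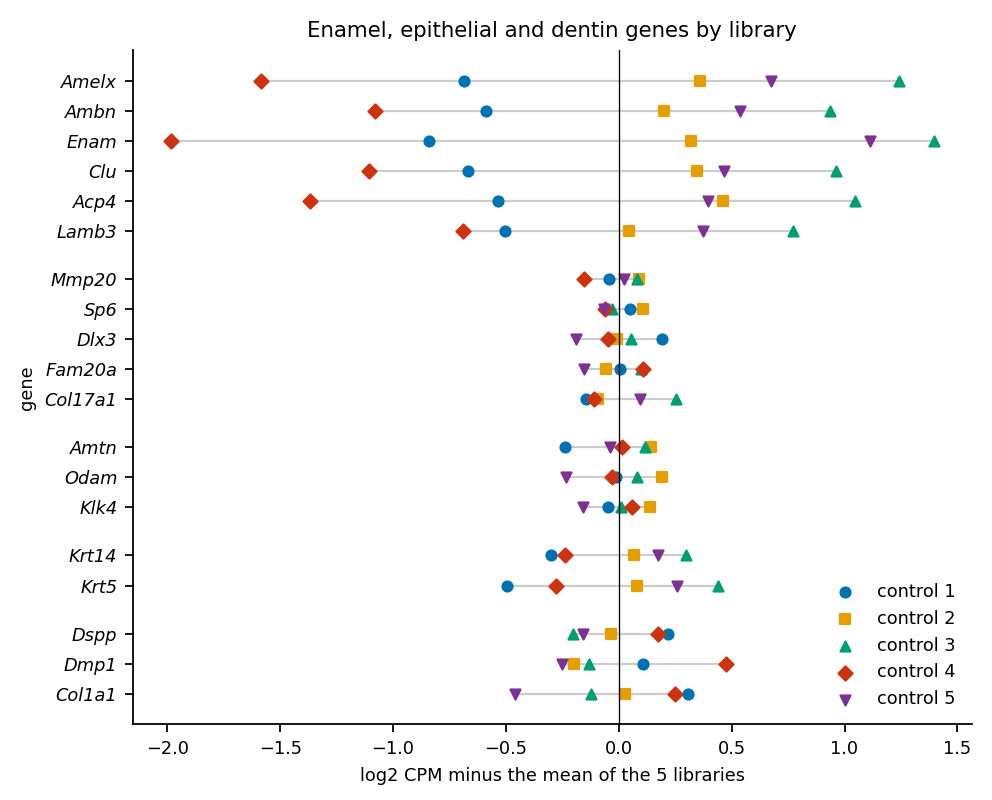
Difference of log2 CPM from the mean of the 5 libraries (horizontal axis) for enamel matrix and related genes, other secretory ameloblast genes, maturation genes, keratins, and dentin and collagen genes (rows, from top), with 1 marker per control library. Control 4 lies at the far left and control 3 at the far right for the upper 6 genes, which span 2.76-fold (Lamb3) to 10.4-fold (Enam), while Mmp20 spans 1.18-fold and Klk4 1.23-fold.

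Collagens and other matrix proteins of dentin, pulp and bone were also abundant. Col1a1 stood at 67729.8, 53175, 43714, 65739 and 38569 TPM, highest in controls 1 and 4, the libraries where Amelx was low. Col1a2, the other chain of type I collagen, stood at 10572, 9241, 8677, 11561 and 7598 TPM. Their ratio was 5.59 ± 0.564 (SD, n = 5) with merged exon lengths and 2.66 ± 0.269 with the longest transcript as length, so the ratio depends on the length used. Type I collagen is built from a pair of Col1a1 chains and a single Col1a2 chain. Col3a1, the fibrillar collagen of soft connective tissue, stood at 4465, 4477, 5023, 4622 and 4490.3 TPM, and control 3 was the highest. On the CPM scale it stood at 10487, 11015, 13557, 10737 and 10884.

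Sparc, which encodes the collagen-binding glycoprotein osteonectin, ranked 5 at 16875, 14761, 13929, 19248 and 13595 TPM. Serpinh1, the collagen chaperone, stood at 4202, 3489.6, 2904, 3758 and 2739 TPM, and Col11a2, a minor fibrillar collagen chain, at 2703, 2219, 1502, 2629 and 1341 TPM. Sparc, Serpinh1 and Col11a2 were each lowest in control 5 and highest in control 1 or 4. All 15 members of the fibrillar matrix list were above 100 TPM in every library, and the list summed to 113754, 93822, 82422, 115364 and 75746 TPM. This sum was above that of the secretory ameloblast list in controls 1 and 4 and below it in controls 2, 3 and 5. No member had a CV over 30%.

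The genes of the odontoblast list, that of dentin-forming cells, spanned less than the enamel matrix genes. Dspp stood at 20687, 16581, 13425, 20285 and 15429.5 TPM, high in controls 1 and 4 and lowest in control 3, with a CV of 13.3% on the CPM scale. Its ratio to Col1a1 was 0.305, 0.312, 0.307, 0.309 and 0.4001, which was nearly the same in 4 libraries and higher in control 5. Dmp1, which encodes an acidic phosphoprotein of mineralizing matrix, stood at 657, 507, 485, 857 and 497 TPM, with control 4 above the rest. Bglap, which encodes osteocalcin, ranked 8 at 9803, 6876, 6657, 10913 and 5473 TPM. With the median transcript as length Bglap ranked 10, and by CPM with no length 44. Its value is uncertain, since 56.6% of the 50-base words of its transcripts also occur in transcripts of other genes.

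Further genes of the odontoblast list were also abundant. This list does not separate odontoblasts from any adhering bone, and Bglap2, the near copy of Bglap, was placed in the bone list. Alpl, the phosphatase that frees phosphate for mineral, stood at 1199 to 1397 TPM with a CV of 4.72%, and Phex, a membrane peptidase of phosphate control, at 459 to 686 TPM. Nes, an intermediate filament of odontoblasts, stood at 434 to 732 TPM, and Sp7, a transcription factor of mineralizing cells, at 282 to 391 TPM. Of the 10 odontoblast genes listed, 9 were above 10 TPM in every library, the exception being Phospho1 at 0.766 to 1.68 TPM. The list summed to 34382, 26908, 23096, 35503 and 24004 TPM, high in controls 1 and 4. Controls 1 and 4 were thus the highest for Col1a1, Dspp and this list and the lowest for the secretory ameloblast list. TPM values share a fixed total, so a gene that takes up much of it lowers all others. With Amelx, Ambn and Enam left out of the total, an alternative chosen after the data were seen, the fold range of TPM between libraries was 1.32 for Dspp and 1.59 for Col1a1, against 1.54 and 1.76 with them.

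**Figure D3:**
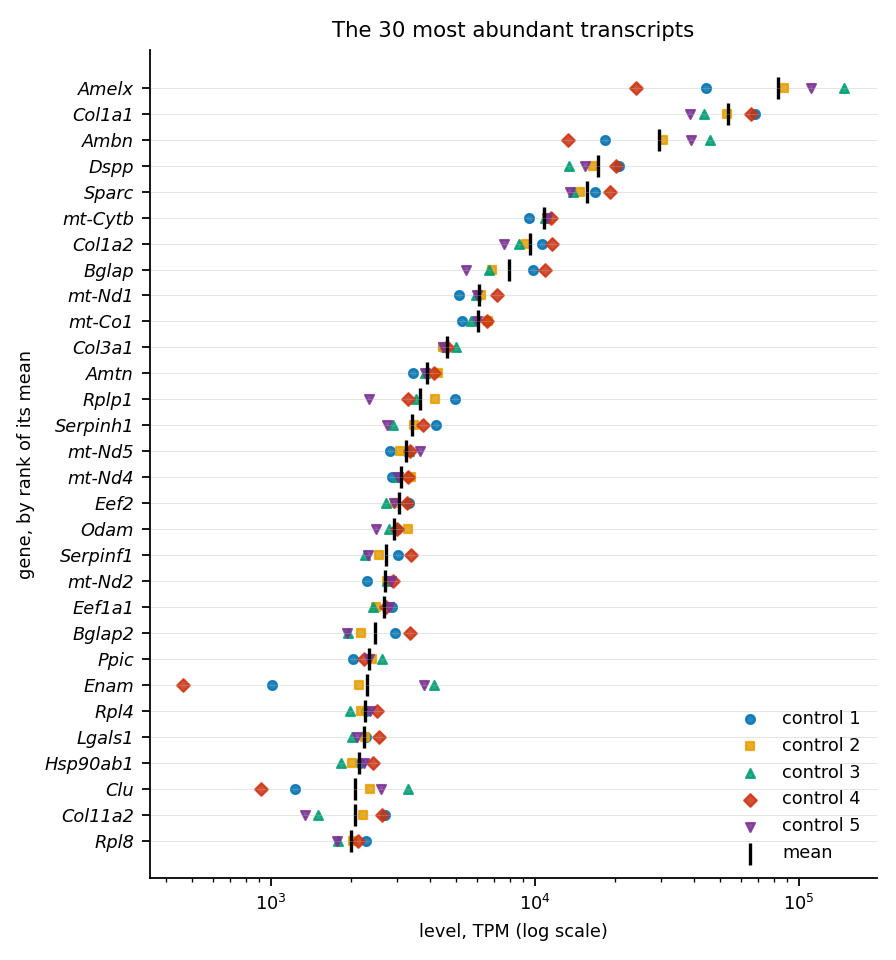
Level in TPM (log scale) of the 30 genes with the highest mean (rows, ordered by mean), with 1 marker per control library and a black bar at the mean of the 5. Amelx, Ambn, Enam and Clu are spread widely, from 462 to 4138 TPM for Enam, while rows such as mt-Nd4 (2857 to 3385 TPM) and Rpl4 (1985 to 2522 TPM) are narrow.

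The 30 most abundant transcripts together held 29.6% of the mean TPM, and the first 5, Amelx, Col1a1, Ambn, Dspp and Sparc, held 19.9%. The exact order is loose. Of 29 neighbouring pairs in the ranking, 4 were in the same order in all 5 libraries, and in 3 of them the ranges did not overlap. Those 3 were Sparc above mt-Cytb, mt-Co1 above Col3a1 and Col3a1 above Amtn. Membership was firmer, since 26 of the 30 genes were among the top 30 of every library. The members at the edge were Col11a2 and Rpl8 inside, at 2079 and 2007 TPM, and Rps15, Itm2b and P4hb outside, at 1880.4, 1863 and 1799.8 TPM.

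Beside enamel, dentin and collagen genes the top 30 held transcripts of energy supply and protein synthesis. Only 21 genes of the mitochondrial genome were measured, 7 of them protein-coding. Mitochondrial genes outside these are in no rank or share given here. Of the 7, 6 were in the top 30, led by mt-Cytb, which encodes cytochrome b, at 9465, 11084, 10876, 11461 and 11106 TPM. Control 1 was the lowest library for mt-Cytb, and mitochondrial genes together took 0.844% of its counts against up to 1.07% elsewhere. Eef2 and Eef1a1, translation elongation factors, stood at 2730.2 to 3339.7 and 2435 to 2866 TPM with CVs of 3.97% and 4.23% on the CPM scale. Serpinf1, which encodes the secreted factor PEDF and is needed for normal bone mineral, stood at 3030.3, 2559, 2269.7, 3393 and 2318 TPM. Lgals1, a galectin, and Hsp90ab1, a chaperone, were between 1839 and 2564 TPM.

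Clu and Ppic also ranked among the 30. Clu, which encodes the secreted chaperone clusterin, stood at 1228, 2369, 3309, 917 and 2612 TPM, in the same order of libraries as Amelx, with a fold range of 4.19 on the CPM scale. Ppic, a cyclophilin of the secretory pathway, stood at 2050.1, 2411, 2634, 2248 and 2349.7 TPM, with control 3 highest and control 1 lowest. Clu is not an enamel matrix gene, and its span was near that of Ambn at 4.04-fold.

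Ribosomal protein genes differed widely in measured level. The 77 genes measured ran from 1.099 TPM for Rpl24 to 3664 TPM for Rplp1, with a median of 65.4. Of them, 19 were below 10 TPM and 7 at 1000 TPM or more. For 76 of the 77, some 50-base words also occur in transcripts of other genes, with a median share of 19.97%. The levels of these genes are uncertain, since no source used here says how reads that match several genes were counted. The part of shared words in these levels was not tested. Words were also shared among the top genes, by Bglap2 (88.2% of words shared), mt-Nd4 (62.2%), mt-Co1 (51.1%), Rplp1 (60%) and Eef1a1 (37.6%). Amelx, Ambn, Enam, Dspp, Col1a1 and Mmp20 shared none. Krt14, the remaining marker, shared 13.9% of its words and the keratin Krt5 8.52%, and the part of these in their levels was not tested.

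Of the 12 general epithelium genes listed, 12 reached 1 TPM, 11 reached 10 TPM and 5 reached 100 TPM in every library. Krt14 stood at 833, 1026, 1099, 879.7 and 1123 TPM and its partner keratin Krt5 at 968, 1376, 1608, 1137 and 1582 TPM. Both were lower in controls 1 and 4 than in the other 3 libraries, with fold ranges of 1.51 and 1.91 on the CPM scale, far less than Amelx. Perp, a desmosome protein, stood at 378 to 562 TPM, Krt17 at 226 to 542 TPM and Cdh1, which encodes E-cadherin, at 115 to 223 TPM. Krt8, Krt18 and Krt19, keratins of simple epithelia, stood at 11.9 to 19.9, 17.3 to 26.9 and 1.05 to 6.603 TPM. The 12 genes summed to 2805, 3867, 4386, 3203 and 4366 TPM, also lowest in controls 1 and 4. Stratum intermedium genes, those of the cell layer beneath the ameloblasts, summed to 321, 317, 304, 309 and 312 TPM, a range of 1.05-fold. As mean log2 CPM this list spanned 0.189, and control 3, lowest by summed TPM, was highest at 5.78. The leading members of the stratum intermedium list were Nectin1, an adhesion receptor, at 72.9 to 97.6 TPM and Cygb, cytoglobin, at 67.5 to 93.3 TPM.

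Of the 10 genes of dental epithelial progenitors listed, 9 reached 1 TPM, 7 reached 10 TPM and 0 reached 100 TPM in every library. Shh, the secreted hedgehog ligand of the enamel epithelium, stood at 45.3 to 84.3 TPM. Sfrp5, a secreted Wnt antagonist, stood at 18.2 to 35.5 TPM and Bmi1, a polycomb protein, at 23.9 to 27.9 TPM. The stem cell factor Sox2 stood at 2.03 to 2.64 TPM and Lgr5, a receptor for R-spondins, at 0.303 to 1.04 TPM. The list summed to 269 ± 26.3 TPM (SD, n = 5).

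Of the 12 genes of dental papilla and pulp listed, 11 reached 1 TPM, 8 reached 10 TPM and 2 reached 100 TPM in every library. The homeobox factors Msx1 and Msx2 stood at 189.5 to 328 and 225 to 293 TPM, Dlx2 at 80.2 to 117 TPM and Smoc2, a matricellular protein, at 69.5 to 107 TPM. Barx1, a homeobox factor known for molars, was near absence at 0.286 to 0.695 TPM. Lhx6, another homeobox factor, stood at 7.99 to 9.05 TPM, and the growth factors Fgf3 and Fgf10 at 3.41 to 6.57 and 3.16 to 4.98 TPM. The 12 genes summed to 1073, 939.7, 777, 958 and 769 TPM. Follicle and ligament genes summed to 2517, 2429, 2682, 2577 and 2527 TPM, led by Tnn, tenascin W, at 1143 to 1218 TPM and Postn, periostin, at 965 to 1172 TPM. Pth1r, the parathyroid hormone receptor, stood at 84.6 to 126 TPM.

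Genes of bone and of bone-resorbing cells were present in every library. Ibsp, bone sialoprotein, stood at 1003, 824, 1085, 1362 and 832 TPM and Spp1, osteopontin, at 511, 394, 967, 991 and 500.2 TPM, which was high in controls 3 and 4 and lower in the other 3. Bglap2, the near copy of Bglap, stood at 2937, 2194, 1959.8, 3362 and 1939 TPM and shares that uncertainty. Sost, the osteocyte product sclerostin, stood at 14.4 to 38.3 TPM, and Mepe, a phosphoglycoprotein of osteocytes, at 1.24, 0.115, 6.32, 4.33 and 1.82 TPM. Osteoclast genes summed to 1691, 1392, 1623, 1787 and 1194 TPM, lowest in control 5. Their leading members were Ctsk, the collagen-cutting cathepsin K, at 733 to 1101 TPM, Acp5, tartrate-resistant acid phosphatase, at 205 to 391 TPM and Mmp9, a gelatinase, at 213 to 286 TPM. Cartilage genes summed to 159 ± 18.3 TPM, the largest share of it Sox9 at 60.9 to 92.2 TPM, with Col2a1 at 11.7 to 34.9 and Matn1 at 0 to 0.09205 TPM.

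Genes of vessels, nerve sheaths and immune cells were also seen. Endothelial genes summed to 566 ± 57.5 TPM (SD, n = 5), led by Cdh5, VE-cadherin, at 135 to 179 TPM, and smooth muscle and pericyte genes to 994 ± 72.04 TPM, led by Rgs5 at 242 to 292 TPM. Schwann cell genes summed to 983, 818, 802, 664 and 814 TPM. The sum was highest in control 1 and lowest in control 4. Pmp22, a membrane protein of peripheral myelin, stood at 255, 221, 227, 227 and 242 TPM with a CV of 6.48%. Neuronal genes were near absence. Of 9 listed, Stmn2 alone reached 1 TPM in every library, at 11.03 to 13.5 TPM, while Snap25 and Elavl3 had at most 0.164 and 0.0403 TPM.

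Macrophage genes summed to 644, 488, 513, 646 and 519.8 TPM, with the complement genes C1qb and C1qa at 121 to 170.0 and 111 to 154 TPM. Neutrophil genes summed to 15.8, 57.3, 60.6, 114 and 24.8 TPM, lowest in control 1 and highest in control 4. S100a9, a calcium-binding protein of neutrophils, stood at 8.25, 32.7, 28.3, 44.6 and 10.7 TPM and the granule protein Ngp at 3.296, 8.42, 10.6, 29.8 and 4.75 TPM. Lymphocyte genes were near absence, with 0 of 5 at 1 TPM in every library and a summed level of at most 1.71 TPM. Erythroid genes summed to 1439.7, 1593, 1061, 1369 and 1116 TPM, mostly the globin Hbb-bs at 659 to 982 TPM, of whose words 53.2% also occur in other genes.

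The list with the widest span was that of cornifying keratinocytes, cells of gum and skin. Its 12 genes summed to 309, 146, 195, 1335 and 169.5 TPM. Control 4 was far above the rest, and without it the list ran from 146 to 309 TPM. Of the 12 genes, 1 reached 100 TPM in every library, and it is not among those named below. At least 100 TPM of each sum is therefore from that gene and not from the keratins named. Krt13 and Krt4, the keratin pair of the lining of the mouth, stood at 59.1, 1.81, 7.92, 547 and 7.88 and at 15.1, 0.728, 3.71, 426 and 8.101 TPM, so most of the excess of control 4 was in these genes. Krt6a, a keratin of gum and stressed epithelium, stood at 59.6, 17.3, 48.9, 107 and 28.8 TPM, and Krtdap, of differentiating keratinocytes, at 12.5, 1.14, 3.83, 43.9 and 1.87 TPM. Ivl and Flg, which mark the cornified envelope of skin, were at or near 0 in every library, Flg with no count at all, and Krt10, of suprabasal epidermis, stayed at 7.95 to 12.3 TPM. Control 4 was also the library with the lowest Amelx, and the part of such tissue in that low value was not tested.

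Skeletal muscle genes summed to 13.8, 20.6, 61.03, 29.2 and 34.99 TPM, with control 3 highest. Acta1, skeletal muscle actin, stood at 2.17, 2.78, 23.5, 6.54 and 10.3 TPM and Mylpf, a myosin light chain, at 6.15, 10.97, 14.2, 9.54 and 12.8 TPM. Adipocyte genes summed to at most 4.31 TPM, with no count for Cidec. The secretory ameloblast list, at 40675 to 200946 TPM, was far above the muscle, keratinocyte and adipocyte lists in every library.

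**Figure D4:**
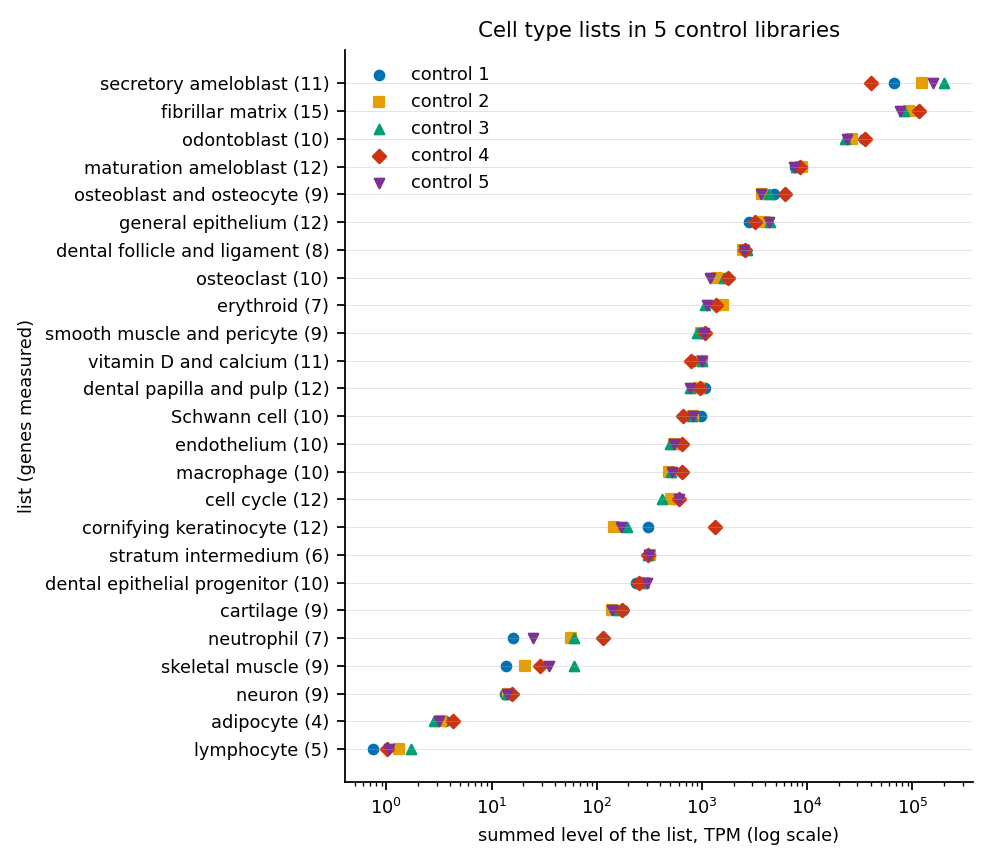
Summed level in TPM (log scale) of each gene list (rows, with the number of genes measured), ordered by mean, with 1 marker per control library. The secretory ameloblast, cornifying keratinocyte, neutrophil and skeletal muscle rows are spread over 4.94-, 9.16-, 7.201- and 4.41-fold, and the stratum intermedium row over 1.05-fold.

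Genes of dividing cells were present in every library. The proliferation antigen Mki67 stood at 80.5, 69.1, 57.7, 87.1 and 94.3 TPM and Top2a, a topoisomerase of dividing cells, at 80.7, 76.1, 60.99, 92.2 and 95.6 TPM. Both were lowest in control 3 and highest in control 5. All 12 cell cycle genes listed reached 1 TPM in every library, 11 of them 10 TPM, and the list summed to 541, 513, 417, 608 and 602 TPM. Pcna, the replication clamp, had a CV of 4.44% on the CPM scale and Ccna2, cyclin A, of 15.6%.

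The genes that the series turns on, those of vitamin D and calcium handling, were expressed in the control tooth to very different degrees. Vdr (ENSMUSG00000022479, chr15:97854425-97910630, minus strand), the vitamin D receptor, stood at 134, 120.4, 102, 139 and 104 TPM and ranked 1203 of all genes, with a CV of 9.91% on the CPM scale. Its partners Rxra and Rxrb stood at 104, 98.5, 105, 108 and 109 and at 74.7, 67.7, 57.3, 71.3 and 61.8 TPM, and Rxrg at 2.09 to 3.21 TPM. Receptor and partners were thus of like abundance except for Rxrg. The enzymes of the hormone were low, Cyp24a1, which breaks it down, at 0.351, 0.491, 0.3496, 0.621 and 0.543 TPM, Cyp27b1, which makes the active form, at 1.24, 2.04, 1.38, 1.07 and 1.24 TPM and Cyp2r1, the hydroxylase of an earlier step known from liver, at 1.58, 1.01, 0.829, 1.35 and 1.29 TPM.

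Among calcium genes, Calb1, which encodes the calcium buffer calbindin of ameloblasts, was the most abundant at 370.0, 573, 610.4, 321 and 599 TPM. It was lower in controls 1 and 4 than in the other 3 libraries and had a CV of 32.2%, the single one over 30% of the 5 members averaging at least 10 CPM. Atp2b1, a plasma membrane calcium pump, stood at 134, 125, 119, 135 and 122 TPM with a CV of 2.91%. S100g, the calbindin of the gut, stood at 0.868, 1.21, 0.118, 0.576 and 0.556 TPM, and the calcium channel Trpv6 at 1.83, 2.71, 2.53, 2.67 and 3.54 TPM. S100g was at the limit of what could be measured, with a mean of 0.0785 CPM where 3 counts amount to 0.0454 to 0.147 CPM.

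Most of the transcriptome was alike between the 5 libraries. For the genes averaging at least 10 CPM the quartiles of the CV were 5.32% and 10.7%, and 2162 of 9973 genes were under 5%. The common biological coefficient of variation estimated by edgeR over 15747 genes was 12.3%. Pearson correlations of log2 CPM across genes ran from 0.979 to 0.992 between pairs of libraries, which share most of their genes' levels and are not independent points. Between 6 genes (controls 3 and 5) and 87 genes (controls 1 and 3) differed by over 2-fold. The steadiest of the abundant genes was Tagln2, an actin-binding protein, at 196, 198, 198, 199 and 198 CPM, a CV of 0.666%. Rnf10, Selenop, Srpr, Plcg1, Trpc4ap, Rps20 and Srrm1 followed with CVs up to 1.36%.

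A CV over 30% was reached by 121 genes and over 50% by 28. The widest were Krt4 and Krt13, at 7.71, 0.389, 2.18, 215 and 4.27 and at 25.8, 0.827, 3.97, 236 and 3.54 CPM, as given above for control 4. After them came Angptl7, an angiopoietin-like secreted protein, at 7.18, 9.83, 30.9, 3.99 and 29.1 CPM. Then followed Enam, and Chst1, a keratan sulfate sulfotransferase, at 48.8, 113, 193, 22.99 and 125 CPM. Chst1, like Amelx, was lowest in control 4 and highest in control 3. The rest of the 12 widest included AI504432, Amelx, Galnt12, an enzyme that starts O-linked glycans, Krt6a, Bnc1, a zinc finger factor of epithelium, and Papln.

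The order of Amelx over the libraries recurred among the wide genes. Controls 1 and 4 were both below the other 3 in 94 of the 121 genes with a CV over 30% (77.7%), against 1711 of all 9973 (17.2%). The exact order of control 4, 1, 2, 5 and 3 held for 45 of the 121 (37.2%), against 265 of 9973 (2.66%). Controls 1 and 4 were both above the other 3 in 4 of the 121, against 1427 of 9973. The order was taken from Amelx, which is itself among the 121, so these counts describe the table and test nothing.

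**Figure D5:**
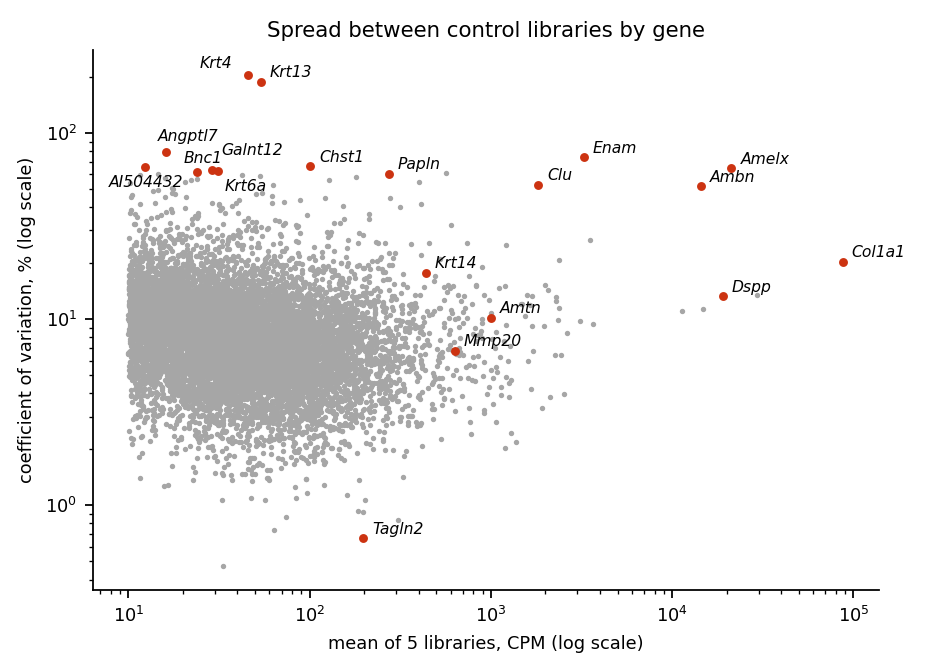
Coefficient of variation of CPM over the 5 control libraries (log scale) against mean CPM (log scale), with 1 grey point per gene among 9973 genes and named genes in red. Krt4 and Krt13 lie at the top, Enam, Amelx, Ambn and Clu lie far above other genes of like abundance, and Dspp, Col1a1, Mmp20 and Amtn lie lower, at 13.3%, 20.4%, 6.796% and 10.2%.

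Transcript length also marked a library. For 54 genes with merged exons under 800 bases that averaged at least 10 CPM, the median log2 difference of control 5 from the mean of the other 4 was -0.25, while the same median was 0.11, 0.10, 0.01 and 0.04 for controls 1 to 4. Rplp1, a short gene, stood at 4960.2, 4165, 3537, 3303 and 2355 TPM, lowest in control 5. The part of length or fragment size in that difference was not tested. The enamel matrix genes have merged exons of 999 (Amelx), 1919 (Ambn) and 5490 bases (Enam).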

How the data were processed

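Each library was a stranded poly-A one from 300 ng of RNA, amplified over 12 PCR cycles, per the labels' protocols. The deposited values were whole-number read counts per Ensembl gene, which the authors made from reads written by bcl2fastq (2.20.0.422), aligned to mm10 by STAR (2.5.3a) and counted by HTSeq (0.6.1p1). These names are from the submitters' processing notes. No source used here gives the annotation release, counting mode, strand setting or gene filters, and PCR duplicates cannot be told from separate molecules. The 5 control columns were read, with 20405188 to 66058759 counts each.

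Symbols, coordinates and merged exon lengths came from GENCODE M21 on GRCm38 (mm10). They matched 34618 of 34709 genes, and the 91 others held at most 0.00131% of counts. TPM was computed from the deposited counts with these lengths, and CPM with TMM scaling over the controls (edgeR 4.0.16, R 4.3.3). The CV used CPM, for genes with a mean of at least 10. The edgeR biological coefficient of variation used filterByExpr (minimum count 10) and no covariate. Its estimate was also run on simulated data in which genes varied independently. Many wide genes here shared an order of libraries, so that run does not vouch for the value given. Shared words are 50-base stretches that also occur in transcripts of another locus. No test between groups was made, so no p-value is given.

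The members and the 26 gene lists were chosen with earlier results of these data known. Of their members, Ahsp, Lep and Trpv5 were not matched. Genes named were the 4 markers, the 30 genes with highest mean TPM and the next 3, up to 4 leading members of each list, all vitamin D and calcium genes, the 12 widest genes by CV and the 8 steadiest with a mean of at least 100 CPM. Some genes that these rules select are not reported here. Further list members and the genes of the closing section were named after their values were seen. Alternatives were other lengths, scalings (DESeq2 1.42.0), filters, prior counts, equal depth and leaving out each library. Plots were made in Python 3.11.15 (matplotlib 3.10.9).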

Additional observations from a re-analysis of the deposited data

Results flagged for a closer look

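Of 172 values examined over the 5 libraries, 8 (4.65%) had a highest or lowest library set apart from the nearest other by more than 0.71 of the range. For independent, normally distributed values chance alone does this in about 1 of 20. The 172 values are not independent and include genes named for their wide spread, so that rate is no yardstick for them. In control 4 lay 4 of the 8. The summed level of the cornifying keratinocyte list was 1335 TPM there, with the next library at 309. Krt4 stood at 426 TPM against 15.1, Krt13 at 547 against 59.1, and the neutrophil granule gene Ngp at 29.8 against 10.6. Krt4 and Krt13 are members of that list, so its flag and theirs are not separate. In control 1 the mitochondrial share of counts was 0.844%, below the next at 1.04%, and mt-Nd2 stood at 2316 TPM, below 2748. Col3a1 stood at 5023 TPM in control 3, above 4622. Adipoq, a hormone of fat cells, stood at 0.141 TPM in control 2, below 0.328, which rests on very few counts.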

How the results depend on the processing

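The number of the 30 top genes that stayed in the top 30 was 27 with the longest transcript as length and 24 without mitochondrial genes, but 16 with the median transcript length and 15 with CPM and no length, so membership depends on the length used. Leaving out a library kept 28 to 30 of them. The share of counts in the 100 top genes was 32.3%, and 37.6% on the TPM scale, with 31.9% to 32.8% when a library was left out. Genes with a CV over 30% numbered 121, and 510 with a mean of at least 1 CPM, 4494 with only a count in every library required, and 48 by edgeR's biological coefficient of variation, against 99 to 167 when a library was left out. The number of genes at 1 CPM in every library was 13557 and 13498 at the depth of the shallowest library, and 13589 to 13640 without any 1 library. Of 24 cell type lists, 13 spanned under 0.5 on the log2 scale, and 10 to 15 did under the alternatives. Of 485 further values of single genes and lists under these settings, 424 moved by less than the spread between libraries and 61 by more. Of the 485, 159 were fold ranges and 216 ranges of lists. A range cannot change when the library left out is neither its highest nor its lowest, so the 424 do not measure robustness. They also include large shifts, such as the span of Enam, 10.4-fold with all libraries and 4.71-fold without control 4. No paired analysis was possible because a single group was described.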

Other observations

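Some of the most abundant and most familiar transcripts fall outside the tooth lists. H19, an imprinted non-coding RNA of growing tissue, ranked 36 of all genes at 1782, 1743, 1454, 1907 and 1870.5 TPM, with a CV of 5.51% on the CPM scale. Among long non-coding RNAs it was well above Malat1, a nuclear RNA, at 201, 164, 150.2, 142 and 186 TPM. Actb, cytoplasmic actin, ranked 38 at 1763, 1681, 1535, 1901 and 1634 TPM with a CV of 3.92%. Gapdh, a glycolytic enzyme often used to scale expression, stood at 4.27, 3.76, 2.61, 4.84 and 3.697 TPM. Of its 50-base words 24.7% also occur in transcripts of other genes, and the part of shared words in this value was not tested.

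A few genes with many copies were wide without following Amelx. Tpt1, a translationally controlled tumour protein, stood at 45.9, 28.1, 27.7, 13.04 and 7.54 TPM, and Ptma, prothymosin alpha, at 170.4, 127, 116, 64.8 and 60.5 TPM. Both were highest in control 1 and lower in controls 4 and 5. Their shared words were 18.7% and 20.4%, and the part of shared reads in this span was not tested.

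Other genes followed controls 1 and 4 low and the rest high. Cntnap2, a cell adhesion protein known from neurons, stood at 6.25, 18.4, 25.2, 6.91 and 23.8 TPM, and Nptx1, a secreted pentraxin known from neurons, at 2.82, 10.6, 11.1, 4.18 and 14.96 TPM, in libraries where the neuronal list summed to at most 15.7 TPM. Lama3, a laminin chain, stood at 84.6, 146, 222, 60.9 and 216 TPM.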
